A study of Homo sapiens with 12 samples.

Results

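E4F1, a zinc finger transcription factor, was knocked down in SUM159 cells that were either left untreated or given gemcitabine, and the result described here is how the effect of the knockdown differed between these conditions. For each gene this is the log2 fold change of shE4F1 against shCTRL cells under gemcitabine minus the same fold change in untreated cells. It was taken from the authors' deposited tables, in which these comparisons share no library. All 12 of the 12 libraries of the study enter it, and 20923 of the 23375 genes in the 4 deposited tables had a p-value in both knockdown tables and were tested. The 4 groups of 3 libraries were shCTRL untreated, shE4F1 untreated, shCTRL with gemcitabine and shE4F1 with gemcitabine. The drug, a deoxycytidine analogue that blocks DNA synthesis, was given at 140 nM for 24 h.

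SUM159 is an established line from a primary triple-negative breast tumour, and all 4 groups are this 1 line, carrying either a scrambled hairpin or a hairpin against E4F1. The labels name 1 hairpin for E4F1 and describe the cells as transfected. The labels leave unsaid whether replicate libraries are separate cultures. Every p-value here therefore reflects the scatter among these 12 libraries alone, and that scatter may be technical. In bulk RNA of this kind, fewer cells of a type and less RNA per cell cannot be told apart. In the authors' deposited table for untreated cells, the mean normalized count was 66531 for the mesenchymal marker VIM, 11117 for CD44 and 8484 for EGFR, against 9.21 for the oestrogen receptor gene ESR1. ERBB2 stood at 2833, above 87.0% of genes, and the progesterone receptor gene PGR has no value here. Of markers of other cells, the leukocyte gene PTPRC had a mean of 42.6, the lysozyme gene LYZ 22.6, the endothelial gene PECAM1 183, and the fibroblast genes DCN and PDGFRB 529 and 486.

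The lists with the highest and the lowest median differences hold target genes of a pair of stress pathways. In the integrated stress response, kinases that sense amino acid shortage, misfolded protein, viral RNA or haem shortage phosphorylate the initiation factor eIF2, which lowers general translation and favours translation of ATF4, a transcription factor that activates amino acid synthesis, amino acid transport and tRNA charging genes. NF-kB factors, which are held in the cytoplasm by inhibitors such as NFKBIA until kinases of the IKK family release them, activate cytokine genes and also their own inhibitors. DNA damage can activate NF-kB through the kinase ATM, and stalled replication forks activate the checkpoint kinases ATR and CHK1.

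At an adjusted p under 0.05 the knockdown effect differed between conditions in 1137 genes, or 5.43% of those tested. In 587 genes (2.81%) it was higher under gemcitabine, which means more positive or less negative, and in 550 (2.63%) it was lower. A difference of at least 1 (log2) was called in 462 genes, 137 higher and 325 lower. Over all genes the median difference was 0.04, and the range from the 5th to the 95th percentile was -0.92 to 0.77. The precision depended on the level: the median standard error (SE) of the difference was 0.685 for genes with a mean normalized count under 50 and 0.184 for the 6329 genes at or above 1000. Genes of higher level were therefore called more readily, and 966 of the 1137 calls were among the 12578 genes with a mean of at least 50. Depth per library is unknown here. The count of calls was 272 when the test statistic was scaled by its own spread over genes, and 132 when the same difference was built from the other 3 tables, without the table of the knockdown under gemcitabine, an estimate whose errors count shared libraries more than once.

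The called genes took several forms. The knockdown effect was itself called only under gemcitabine in 452 of the 1137, of which 204 were higher and 248 lower, and only in untreated cells in 303. These are 12.7% of the 3572 tested genes whose knockdown effect was called only under gemcitabine and 17.7% of the 1716 called only untreated. In the authors' deposited tables the knockdown effect was called in 43% of the tested genes under gemcitabine and in 34.1% untreated, with a median SE of 0.178 and 0.232. Another 97 genes were called in both tables with opposite signs, 44 turning from lower to higher and 53 from higher to lower. They are all 97 tested genes of this form, an outcome nearly fixed once both effects are called with opposite signs. The effect kept its sign and was larger under gemcitabine in 100 genes and smaller in 180. These are 4.35% of 2301 and 5.94% of 3028 tested genes of those forms, near the 5.43% of all genes. The remaining 5 genes were called in neither table alone. The plot of the knockdown effect in one condition against the other shows these forms as distance from the diagonal.

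**Figure D1:**
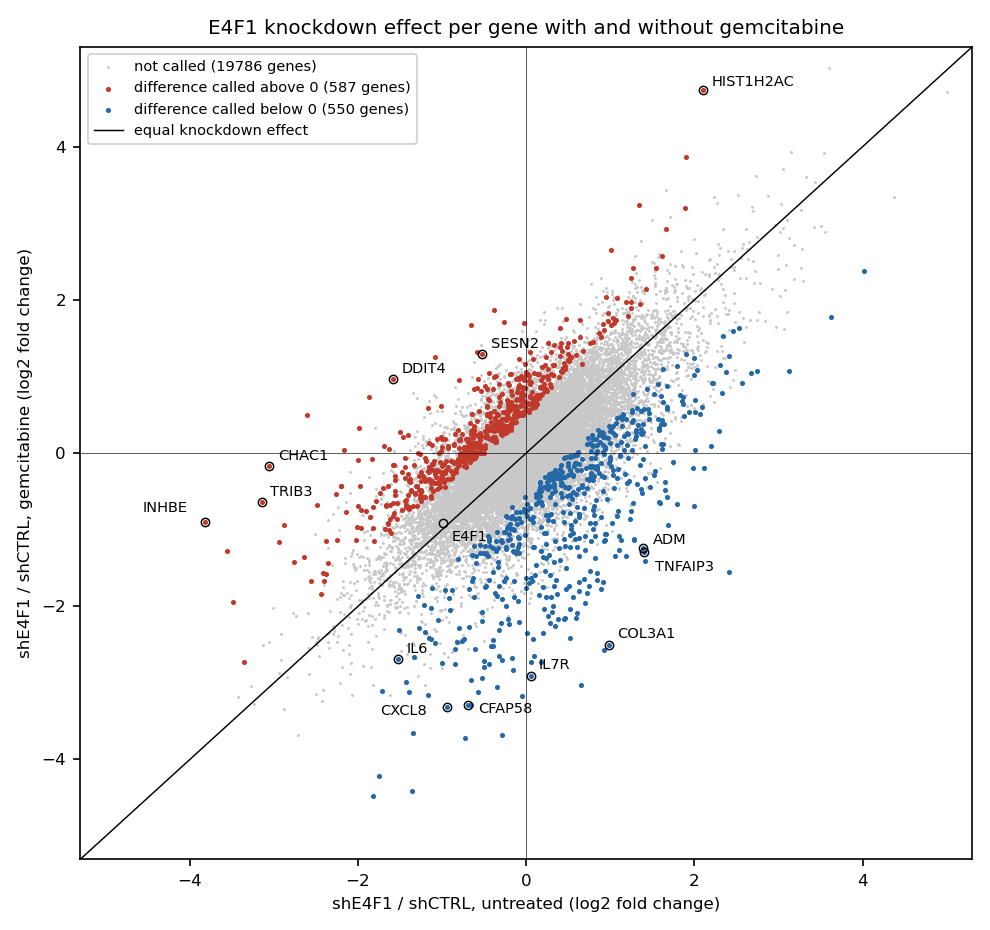
Each point is 1 of 20923 genes, with the log2 fold change of shE4F1 against shCTRL in untreated cells on the horizontal axis and under gemcitabine on the vertical axis. Red marks the 587 genes whose difference was called above 0 and blue the 550 called below 0; INHBE, CHAC1 and TRIB3 lie far left near the horizontal midline, TNFAIP3, ADM and COL3A1 lie at the lower right, and E4F1 lies on the diagonal.

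The knockdown of E4F1 itself (ENSG00000167967, chr16:2223566-2235742, plus strand, GRCh38) did not differ detectably between conditions. Its fitted level was 415 normalized counts in shCTRL and 209 in shE4F1 untreated cells, and 384 and 205 under gemcitabine. In the authors' deposited tables the knockdown effect on E4F1 was -0.99 ± 0.26 (SE) untreated and -0.91 ± 0.16 under gemcitabine, a difference of 0.08 ± 0.31 (adjusted p = 0.951). Levels here and below are fitted from a table's mean and its fold change, and since each table was normalized separately, levels of the untreated and the gemcitabine table are not on one scale. Of 13 tested genes in a list of E4F1 and its reported targets, 1 was called higher and 0 lower, with a median difference of 0.06. The called gene was ELP3, of the Elongator complex that modifies tRNA, at -0.35 ± 0.15 untreated and 0.38 ± 0.10 under gemcitabine in the authors' deposited tables (difference 0.73 ± 0.18, adjusted p = 0.00263). For the checkpoint kinase gene CHEK1 the difference was 0.04 ± 0.20, and for TTI2, a cofactor of PIKK kinases, 0.01 ± 0.20. None of the 13 genes of PIKK kinases and their TTT-R2TP cofactors was called. Counts of called members, here and in the other lists, are to be read against the 2.81% of all genes called higher and the 2.63% called lower, which is about 1 gene each way in a list of 36. The share called higher rose with level. Tested alone, 681 of the 12578 genes with a mean of at least 50 were called higher and 452 lower, with a median difference of 0.08. For the 6329 genes at or above 1000 it was 400 and 154, with a median of 0.10. Lists of well-expressed genes are to be read against these values.

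Targets of the stress transcription factors ATF4 and CHOP had the largest share of called members among the 42 lists with a tested gene. All lists were chosen with earlier results of these data known, so this rank is a description only. Of the 36 ATF4 and CHOP genes, 30 were called higher under gemcitabine and 0 lower, against 2.81% and 2.63% of all genes. Their median difference was 1.07, while that of all genes was 0.04. The list's median knockdown effect was -1.53 in untreated cells and -0.23 under gemcitabine in the authors' deposited tables. In shCTRL cells the median effect of gemcitabine on these genes was -0.86, and the median of shE4F1 with gemcitabine against untreated shCTRL was -1.03, again from the authors' deposited tables. Both of these share the untreated shCTRL libraries. The libraries behind the drug effect in shCTRL cells also enter the difference, with the opposite sign, so the 2 values are not independent. By these medians shE4F1 cells were below shCTRL cells mainly without drug, and shCTRL cells with drug also lay below those without. The knockdown effect was called lower in 32 of the 36 genes untreated and still in 17 under gemcitabine. It was called higher in 0 and 4. Among all genes, 17.9% and 21.3% were called lower. For the difference, the count of higher calls was 21 of 36 with the test statistic scaled by its spread and 16 from the other 3 tables, with 0 lower in both. Of the 25 members with a mean of at least 1000, 23 were called. ATF3, a stress-induced relative of ATF4, is not on this list and is given below with the immediate early genes. The knockdown effect on ATF3 was more negative under gemcitabine, by a difference that was not called.

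**Figure D2:**
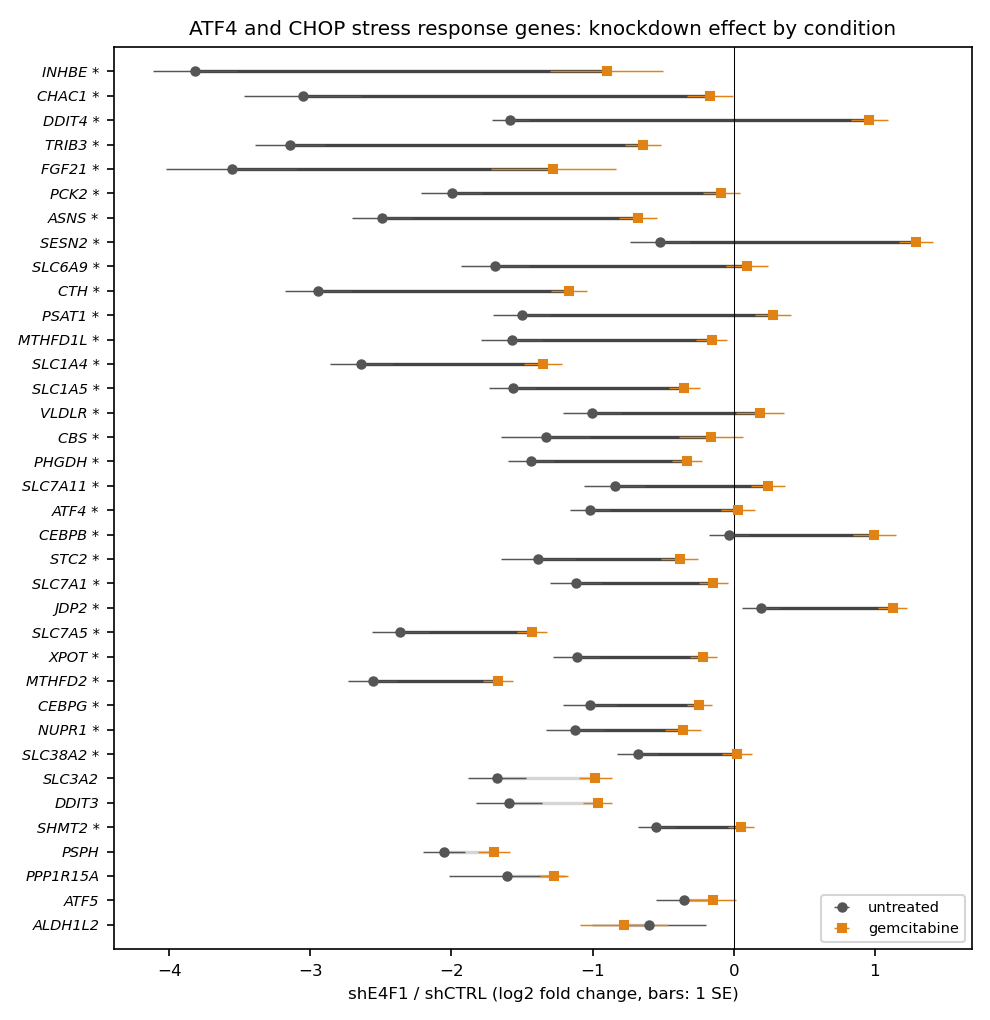
The 36 ATF4 and CHOP target genes are ordered by difference, with the log2 fold change of shE4F1 against shCTRL as a grey circle for untreated cells and an orange square for gemcitabine, and bars of 1 SE. An asterisk and a dark line mark the 30 genes called; for every gene except ALDH1L2 the orange square lies to the right of the grey circle.

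ATF4 pairs with C/EBP proteins on a composite DNA word, TTGCATCA. This word was searched on both strands from 250 bases before to 50 after each RefSeq start. It was present in 7 of the 30 listed genes that have such a window (23.3%), in 4.49% of the 445 protein-coding genes called higher, in 1.70% of the 353 called lower and in 0.916% of all 11458. The list was assembled from known targets, so its own share is a property of that choice. Shown here, because they carry the word clear of any start of the gene, are CHAC1 and FGF21, both on the list, and HERPUD1, a component of protein degradation at the endoplasmic reticulum. The strand shown is that of the gene, sequences are from RefSeq on GRCh38.p14, and capitals mark the word.
CHAC1, chr15:40953252-40953279, plus strand: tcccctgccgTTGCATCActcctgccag
FGF21, chr19:48755460-48755487, plus strand: aacaccaggaTTGCATCAgggaggagga
HERPUD1, chr16:56931956-56931983, plus strand: acgcggcgggTTGCATCAgcccgtgccc
A match is a string of letters, not a site shown to be bound. The word in CHAC1 begins 209 bases before a RefSeq start, and its window lies inside the gene as GENCODE 29 draws it.

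The subgroups of the ATF4 and CHOP list, here and below, were formed after values were seen, so their shares are descriptions only. Among the regulators on this list, 6 of 9 were called higher, with a median difference of 0.77. ATF4 mRNA itself was lower with the knockdown only in untreated cells: the authors' deposited tables give -1.02 ± 0.14 untreated and 0.03 ± 0.12 under gemcitabine, a difference of 1.05 ± 0.18 (adjusted p = 3.44e-06). TRIB3, a pseudokinase that restrains ATF4, had a fitted level of 7576 normalized counts in shCTRL and 858 in shE4F1 untreated cells, and 2940 and 1881 under gemcitabine. Its difference was 2.50 ± 0.28 (adjusted p = 1.09e-15). CEBPB, a partner of ATF4, and JDP2, a repressor of the same family, stood near 0 untreated at -0.03 ± 0.14 and 0.19 ± 0.14, and at 1.00 ± 0.15 and 1.13 ± 0.10 under gemcitabine in the authors' deposited tables. The differences of CEBPB and JDP2 were 1.03 and 0.93. DDIT3, which encodes CHOP, had a difference of 0.63 ± 0.26 that was not called (adjusted p = 0.140), and the eIF2 phosphatase subunit gene PPP1R15A one of 0.33 ± 0.42 (adjusted p = 0.803).

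Genes of amino acid synthesis were called higher in 6 of 7 cases, with a median difference of 1.78. The asparagine synthetase gene ASNS had a fitted level of 14095 in shCTRL and 2504 in shE4F1 untreated cells, and of 8464 and 5291 under gemcitabine. The knockdown effect on ASNS was -2.49 ± 0.21 and -0.68 ± 0.14 in the authors' deposited tables, a difference of 1.82 ± 0.25 (adjusted p = 6.72e-10). PCK2, a mitochondrial enzyme that makes phosphoenolpyruvate, and PSAT1, of serine synthesis, were lower with the knockdown in untreated cells at -2.00 ± 0.22 and -1.50 ± 0.20, and stood at -0.09 ± 0.13 and 0.28 ± 0.13 under gemcitabine in the authors' deposited tables. CTH, of cysteine synthesis, stayed lower in both conditions, at -2.94 ± 0.24 and -1.17 ± 0.13 in the authors' deposited tables. PSPH, which completes serine synthesis, was the member not called, at -2.05 ± 0.15 and -1.70 ± 0.11 in the same tables (adjusted p of the difference = 0.317).

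Of the one-carbon enzymes, 3 of 4 were called higher. MTHFD1L, MTHFD2 and SHMT2, of mitochondrial folate metabolism, had differences of 1.42 ± 0.24, 0.89 ± 0.20 and 0.60 ± 0.16. ALDH1L2, with a mean of 23.4 untreated, had one of -0.18 ± 0.51. Amino acid transporters were called higher in 7 of 8 cases with a median of 1.03. The glycine transporter gene SLC6A9 had the largest difference of these, 1.78 ± 0.28, with a knockdown effect of -1.69 ± 0.24 untreated and 0.09 ± 0.15 under gemcitabine in the authors' deposited tables. The cystine transporter gene SLC7A11 had a difference of 1.09 ± 0.25 and the leucine transporter gene SLC7A5 of 0.93 ± 0.23. The heavy chain SLC3A2, with which both of these proteins pair, had one of 0.70 ± 0.23 that missed the threshold (adjusted p = 0.0525).

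All 8 secreted and other targets were called higher, with a median of 2.04, and they include the list's highest values. INHBE (ENSG00000139269, chr12:57452323-57459280), which encodes an activin subunit, had a fitted level of 538 in shCTRL and 38.2 in shE4F1 untreated cells. Under gemcitabine its levels were 1012 and 542. Its difference of 2.92 ± 0.50 (adjusted p = 1.52e-06) was the highest among called genes with a mean of at least 50 in both tables. CHAC1 (ENSG00000128965, chr15:40952962-40956519), an enzyme that degrades glutathione, had levels of 1024 and 123 untreated and of 337 and 299 under gemcitabine. Its difference was 2.88 ± 0.45 (adjusted p = 6.06e-08), and under gemcitabine the effect of the knockdown on CHAC1 was not called (adjusted p = 0.456 in the authors' deposited table). FGF21, a stress hormone, had a difference of 2.28 ± 0.64 at means of only 25.8 and 19.3.

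DDIT4 and SESN2, which both restrain the growth kinase complex mTORC1, differed in another way, since their knockdown effect changed sign. DDIT4 (ENSG00000168209, chr10:72273920-72276036, plus strand) had a fitted level of 45743 in shCTRL and 15280 in shE4F1 untreated cells, and of 5842 and 11369 under gemcitabine. The knockdown effect on DDIT4 was -1.58 ± 0.13 untreated and 0.96 ± 0.13 under gemcitabine in the authors' deposited tables (difference 2.54 ± 0.19, adjusted p = 1.02e-37). In shCTRL cells the authors' deposited table gives -3.06 ± 0.17 for the effect of gemcitabine on DDIT4, while the value derived for shE4F1 cells, as the table of both changes minus the untreated knockdown table, was -0.60. The antisense gene RP11-442H21.2 overlaps DDIT4 and had a difference of 2.60 ± 0.32. The strand setting of the counting is not given in the sources used here, so reads of this pair may not be told apart. SESN2 was at -0.52 ± 0.21 untreated and 1.29 ± 0.12 under gemcitabine in the authors' deposited tables, a difference of 1.81 ± 0.25.

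Charging of tRNA, which ATF4 also controls, had a smaller difference of the same sign. Of 20 aminoacyl-tRNA synthetase genes 9 were called higher and 0 lower, with a median of 0.51. The methionyl enzyme MARS was at -1.64 ± 0.19 and -0.42 ± 0.10 in the authors' deposited tables (difference 1.22 ± 0.21), and the glycyl enzyme GARS had a difference of 1.14 ± 0.21. Differences of HARS, KARS and LARS, for histidine, lysine and leucine, were 0.00 ± 0.16, -0.10 ± 0.17 and 0.09 ± 0.17. Of 21 genes of endoplasmic reticulum chaperones and the unfolded protein response, 4 were called higher and 1 lower. HERPUD1, printed above, was at -0.62 ± 0.15 untreated and 0.83 ± 0.12 under gemcitabine in the authors' deposited tables, a difference of 1.45 ± 0.20. XBP1, the transcription factor of the IRE1 branch, had a difference of 1.22 ± 0.21. EIF2AK3, which encodes the eIF2 kinase PERK, was the member called lower, at -0.67 ± 0.18. The abundant chaperone genes HSP90B1 and CANX had differences of 0.13 ± 0.18 and 0.14 ± 0.16.

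Targets and regulators of NF-kB differed in the opposite direction. Of 25 genes of NF-kB signalling and feedback, 10 were called lower under gemcitabine and 0 higher, with a median of -0.67, and of 20 cytokine and chemokine genes 5 were called lower and 0 higher, with a median of -0.70. These shares compare with 2.63% called lower among all genes. In the authors' deposited tables the signalling list had a median knockdown effect of 0.20 untreated and -0.50 under gemcitabine. Its effects were called lower in 7 of 25 genes untreated and in 15 under gemcitabine, and higher in 11 and 4. For the cytokine list the medians were -0.73 and -1.53, with 11 of 20 genes called lower untreated and 14 under gemcitabine. It had 2 called higher in each condition. In shCTRL cells the median effect of gemcitabine was 1.35 on the signalling list and 1.83 on the cytokine list in the authors' deposited table. The same shCTRL libraries enter the difference in knockdown effect with the opposite sign. Opposite signs of this drug effect and of the difference are therefore built in to some extent. The cytokine count rests in part on low untreated levels: 11 of the 20 genes had a mean of at least 50 in both tables, and 2 of these were called. Taken from the other 3, 2 of 25 signalling and 0 of 20 cytokine genes were called lower, and with the test statistic scaled by its spread 4 and 1.

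**Figure D3:**
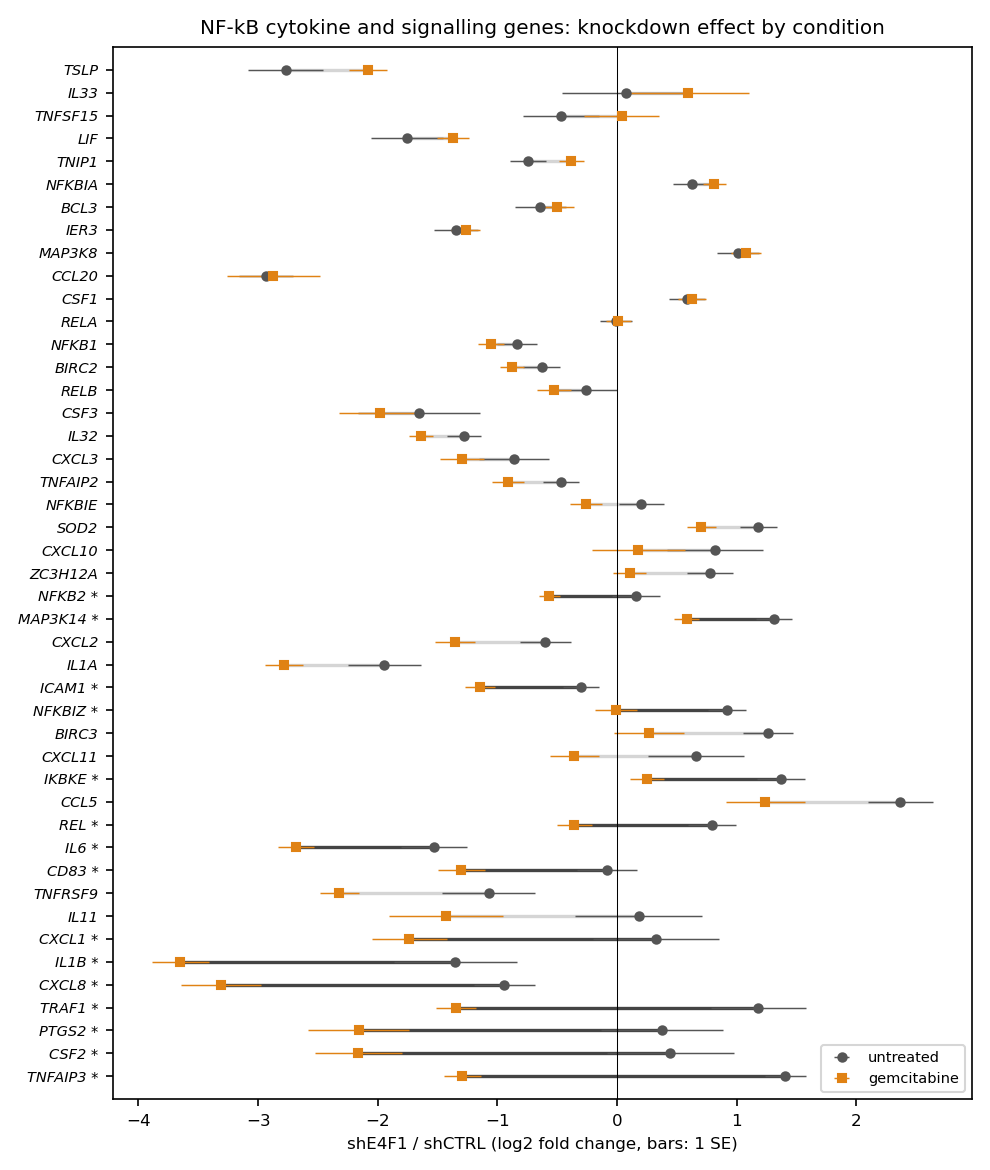
The 45 NF-kB signalling and cytokine genes are ordered by difference, with the log2 fold change of shE4F1 against shCTRL as a grey circle for untreated cells and an orange square for gemcitabine, and bars of 1 SE. An asterisk and a dark line mark the 15 genes called, in all of which the orange square lies to the left of the grey circle.

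NF-kB dimers bind words close to GGNNTTTCC, where N is any base. This word was present in 24 of the 38 genes of both lists that have a promoter window (63.2%), in 12.7% of protein-coding genes called lower, in 7.64% of those called higher and in 9.09% of all. These lists too were assembled from known targets. Windows of members called lower are printed on the strand of the gene, with the word or its reverse complement in capitals, from RefSeq on GRCh38.p14.
CXCL8, chr4:73740468-73740496, plus strand: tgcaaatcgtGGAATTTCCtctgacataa
IL6, chr7:22727118-22727146, plus strand: atcaaatgtgGGATTTTCCcatgagtctc
TNFAIP3, chr6:137867182-137867210, plus strand: acgtgactttGGAAAGTCCcgtggaaatc
ICAM1, chr19:10270924-10270952, plus strand: gctttagcttGGAAATTCCggagctgaag
REL, chr2:60881518-60881546, plus strand: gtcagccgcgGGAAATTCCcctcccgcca
In GENCODE 29 the TNFAIP3 and REL windows cross the gene's start, those of IL6 and ICAM1 lie inside the gene, and that of CXCL8 lies outside it. TNFAIP2 and NFKB1, which also carry the word, had differences of -0.45 ± 0.20 and -0.22 ± 0.20 that were not called.

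Among the regulators, TNFAIP3 (ENSG00000118503), which encodes the ubiquitin-editing inhibitor A20, turned from higher to lower with the knockdown. Its fitted level was 609 in shCTRL and 1614 in shE4F1 untreated cells, and 13327 and 5443 under gemcitabine. The knockdown effect on TNFAIP3 was 1.41 ± 0.17 and -1.29 ± 0.16 in the authors' deposited tables, a difference of -2.70 ± 0.23 (adjusted p = 1.58e-27). TRAF1, an adaptor of TNF receptors, likewise turned from 1.18 ± 0.40 to -1.35 ± 0.17 in the authors' deposited tables. Its difference was -2.53 ± 0.43 (adjusted p = 1.43e-06), but its mean was only 25.6 in the untreated table, and from the other 3 tables the difference was -2.27. The NF-kB subunit genes REL and NFKB2 had differences of -1.15 ± 0.25 and -0.73 ± 0.22, the kinase genes IKBKE and MAP3K14 -1.12 ± 0.24 and -0.73 ± 0.18, and the atypical inhibitor gene NFKBIZ -0.93 ± 0.24. The subunit gene RELA and the inhibitor gene NFKBIA had differences of 0.02 ± 0.17 and 0.19 ± 0.19, neither of which was called. The strongly expressed targets BIRC3 and SOD2 were at -0.99 ± 0.36 (adjusted p = 0.0838) and -0.48 ± 0.20 (adjusted p = 0.147).

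Of the cytokines, CXCL8 (ENSG00000169429), the neutrophil chemokine interleukin-8, had a fitted level of 442 in shCTRL and 230 in shE4F1 untreated cells, and of 50539 and 5095 under gemcitabine. The knockdown effect on CXCL8 was -0.94 ± 0.26 and -3.31 ± 0.33 in the authors' deposited tables, a difference of -2.37 ± 0.42 (adjusted p = 4.62e-06). From the other 3 tables the difference was -1.27 and was not called (adjusted p = 0.408). IL6, interleukin-6, had levels of 138 and 47.9 untreated and of 3388 and 526 under gemcitabine, with a difference of -1.16 ± 0.31 (adjusted p = 0.00802). CSF2, IL1B and CXCL1 were called lower at -2.61 ± 0.64, -2.30 ± 0.56 and -2.06 ± 0.61, with means of 3.75, 8.18 and 2.56 normalized counts untreated and of 282, 230 and 99.7 under gemcitabine. The deposited fold changes of low genes are moderated towards 0, possibly to a different degree in each table, and the size of a difference may come in part from unequal moderation where a gene is this low in 1 table. That part was not tested. From the other 3 tables the differences of CSF2, IL1B and CXCL1 were -1.06, -2.20 and -1.68. IL32 and CSF1, the cytokine genes of highest mean in the untreated table, were at -0.36 ± 0.17 and 0.04 ± 0.19 and were not called. The chemokine gene CCL20 was lower with the knockdown in both conditions, at -2.94 ± 0.23 and -2.87 ± 0.39 in the authors' deposited tables, with a difference of 0.06 ± 0.45.

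Immediate early genes, which growth factors and stress induce within minutes, were called lower in 6 of 18 cases (33.3%, against 2.63% of all genes) and higher in 1. EGR1 was at -0.32 ± 0.49 untreated and -2.31 ± 0.41 under gemcitabine in the authors' deposited tables, a difference of -1.98 ± 0.64 with adjusted p = 0.0381. It was not called with the test statistic scaled by its spread (adjusted p = 0.313). The AP-1 subunit genes FOS, FOSB and JUN had differences of -1.91 ± 0.47, -1.44 ± 0.35 and -0.76 ± 0.22, and KLF6 of -0.87 ± 0.20. JUND, a subunit with growth-restraining activity, was called higher at 0.88 ± 0.25, and the most abundant members FOSL2 and FOSL1 were not called, at -0.25 ± 0.19 and 0.12 ± 0.28. ATF3, a stress-induced relative of ATF4, was lower in both conditions, at -2.43 ± 0.43 and -3.24 ± 0.17 in the authors' deposited tables (adjusted p of the difference = 0.395). The AP-1 word TGANTCA was in 15.3% of promoter windows of genes called lower, 6.74% of those called higher and 7.51% of all.

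The levels of 12 genes in the 4 groups, drawn relative to untreated shCTRL cells, show several shapes. ASNS, CHAC1 and INHBE differed between hairpins mainly without drug, CXCL8, IL7R and CDKN1A mainly with it, and IL6 in both conditions but more so with it. For SESN2, DDIT4, TNFAIP3 and COL3A1 the order of the hairpins was exchanged. HIST1H2AC was higher with shE4F1 in both conditions.

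**Figure D4:**
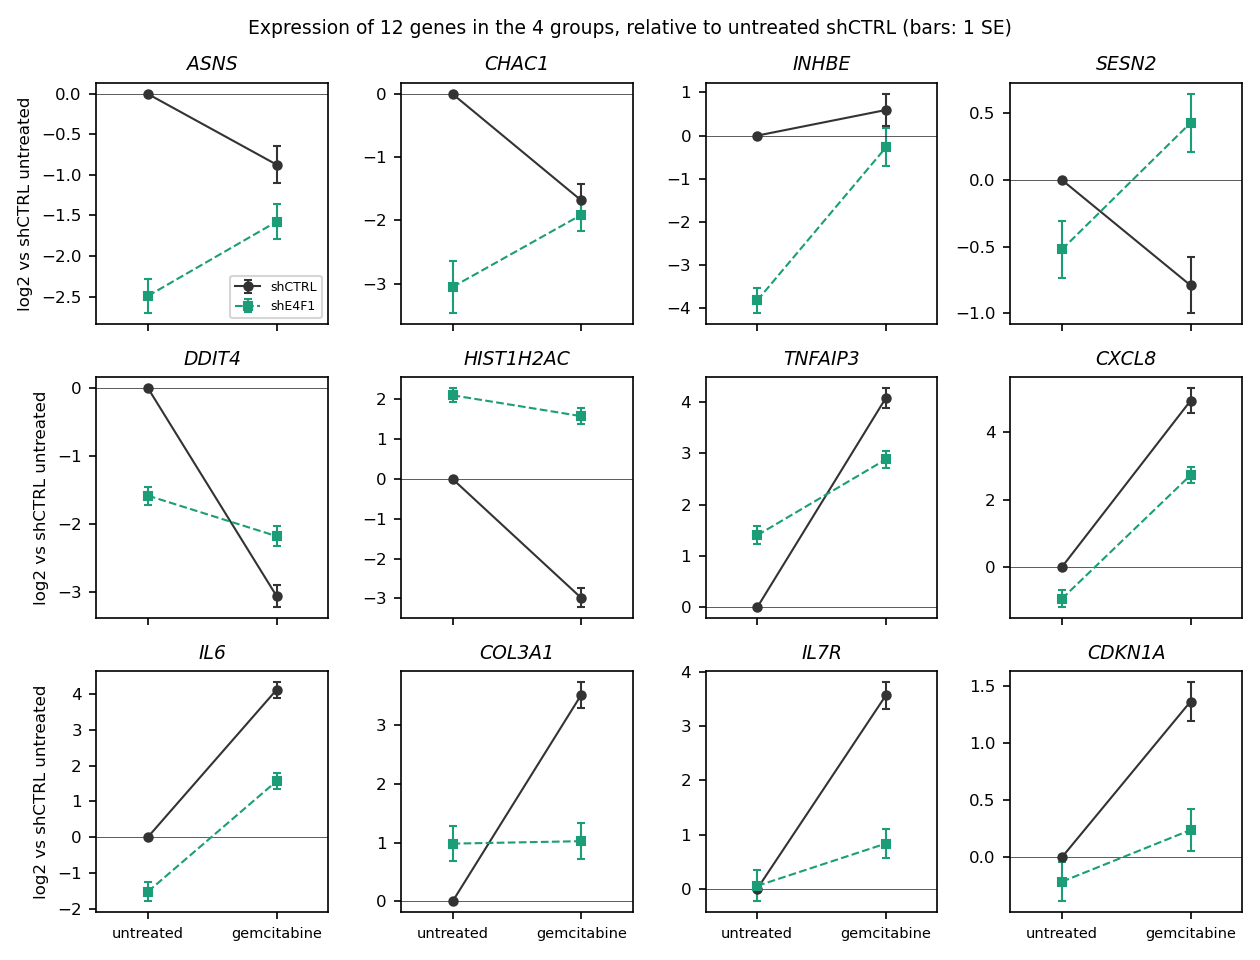
Log2 fold changes against untreated shCTRL cells are drawn for 12 genes, with shCTRL as black circles and shE4F1 as green squares, untreated at the left and gemcitabine at the right of each panel, bars of 1 SE and a vertical scale per gene. The 3 plotted values of a panel come from 3 deposited tables that share the untreated shCTRL libraries. Lines that are not parallel show the difference as built from these 3 values, without the comparison of hairpins under gemcitabine. It can depart from the reported difference, and for CXCL8 it was smaller in size.

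The lowest difference among called genes with a mean of at least 50 was that of the fibrillar collagen gene COL3A1 (ENSG00000168542, chr2:188974320-189012746). Its fitted level was 38.3 in shCTRL and 75.7 in shE4F1 untreated cells, and 564 and 99.6 under gemcitabine. The difference for COL3A1 was -3.48 ± 0.36 (adjusted p = 4.00e-19). IL7R, the interleukin-7 receptor, had untreated levels of 326 and 338, with no call of the knockdown effect, and levels of 5490 and 732 under gemcitabine (difference -2.96 ± 0.33). ADAMTS1, a matrix protease, and ADM, the vasodilator adrenomedullin, turned from higher to lower with the knockdown, with differences of -2.69 ± 0.22 and -2.62 ± 0.30. CFAP58, a ciliary gene, had a difference of -2.59 ± 0.32 and LMCD1, a LIM domain gene, of -2.05 ± 0.32. GLP2R, the receptor of an intestinal peptide hormone, and the noncoding gene RP11-32B5.8 were at -2.12 ± 0.36 and -2.32 ± 0.39. The fitted level of RP11-32B5.8 was only 20.9 in shCTRL and 90.8 in shE4F1 untreated cells, and 114 and 99.2 under gemcitabine. Its untreated mean reached 50 through the shE4F1 cells. Like IL7R and GLP2R, STC1, a secreted glycoprotein, and TMEM236 stood within 0.3 of 0 untreated. STC1 and TMEM236 had differences of -1.62 ± 0.43 and -1.94 ± 0.31.

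Outside the ATF4 and CHOP list, and among called genes with a mean of at least 50 in both tables, the highest differences were those of HIST1H2AC, RP11-442H21.2 (2.60, antisense to DDIT4), KRTAP7-1, TSC22D3 and HIST1H2BD. TSC22D3, a leucine zipper gene induced by glucocorticoids, was at -0.59 ± 0.14 untreated and 1.32 ± 0.13 under gemcitabine in the authors' deposited tables, a difference of 1.91 ± 0.19 (adjusted p = 1.27e-20). KRTAP7-1, a hair keratin-associated gene, had a difference of 1.96 ± 0.61 (adjusted p = 0.0283), which was 0.29 and not called from the other 3 tables. SH3TC2 and the noncoding gene ENSG00000259828 were further genes with effects called in opposite directions, with differences of -1.91 ± 0.37 and -1.73 ± 0.39.

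Replication-dependent histone genes were called higher in 6 of 35 cases (17.1%, against 2.81% of all genes) and lower in 1, with a median of 0.53. HIST1H2AC (ENSG00000180573, chr6:26124145-26139116) had a fitted level of 379 in shCTRL and 1629 in shE4F1 untreated cells, and of 49.3 and 1316 under gemcitabine. The knockdown effect on HIST1H2AC was 2.10 ± 0.18 and 4.74 ± 0.18 in the authors' deposited tables (difference 2.64 ± 0.26, adjusted p = 1.23e-20). HIST1H2BD had a difference of 1.89 ± 0.33, HIST3H2A of 1.75 ± 0.38 and HIST2H2BE of 1.30 ± 0.32, while HIST1H1C and HIST1H2BN were not called at 0.29 ± 0.24 and -0.08 ± 0.26. Under gemcitabine the fitted shCTRL levels of HIST1H2BD, HIST3H2A and HIST2H2BE were only 30.5, 44.7 and 28.3. In shE4F1 cells they were 287, 86.1 and 259, and through these the genes reached a mean of 50 there. Only 11 of the 35 had a mean of at least 50. The libraries came from an mRNA kit, while the bulk of histone transcripts ends in a stem-loop without poly(A), so total histone mRNA may behave otherwise. Reads of near-identical histone copies may be split in unknown ways.

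Of 46 genes of DNA replication, the knockdown effect was called lower in 39 in untreated cells and in 40 under gemcitabine in the authors' deposited tables, against 17.9% and 21.3% of all genes. The median knockdown effect over these genes was -0.90 untreated and -0.69 under gemcitabine in the authors' deposited tables. The difference was called higher in 6 of the 46 (13.0%, against 2.81% of all genes) and lower in 0, with a median of 0.20. All 46 had a mean of at least 50, a level at which 681 of 12578 genes were called higher. CDT1 and CDC45, which load and activate the replicative helicase, had differences of 1.04 ± 0.27 and 0.94 ± 0.22, the clamp loader gene RFC4 of 0.79 ± 0.20 and the primase gene PRIM1 of 0.71 ± 0.22. The helicase subunit genes MCM7 and MCM3 were at -0.01 ± 0.22 and 0.28 ± 0.22 and were not called. Homologous recombination and Fanconi genes were called higher in 7 of 34 cases (20.6%) and lower in 0, with a median of 0.36. The Fanconi core gene FANCE was at -1.57 ± 0.17 untreated and -0.55 ± 0.12 under gemcitabine in the authors' deposited tables (difference 1.02 ± 0.21). RAD54L, EME1 and XRCC3, of strand exchange and junction cleavage, had differences of 0.86 ± 0.25, 0.76 ± 0.23 and 0.75 ± 0.22, while the break sensors NBN and RAD50 were at 0.15 ± 0.18 and -0.02 ± 0.22.

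In the DNA damage checkpoint list 2 of 22 were called higher, PKMYT1, an inhibitory kinase of CDK1, at 1.25 ± 0.31 and the phosphatase gene CDC25B at 0.60 ± 0.18. None of 12 end joining genes was called, and of 14 genes of translesion synthesis and end protection only UBE2B, a ubiquitin-conjugating enzyme, was (0.57 ± 0.18). MAD2L2, of the same list and strongly lower in both conditions at -3.36 ± 0.21 and -2.72 ± 0.14 in the authors' deposited tables, had a difference of 0.64 ± 0.26 (adjusted p = 0.139). CKS1B, a subunit of cyclin-dependent kinases, stood at -3.35 ± 0.16 and -2.73 ± 0.11 in the same deposited tables, with a difference of 0.63 ± 0.19 (adjusted p = 0.0272). It was 1 of 4 genes called higher among 26 of the G1/S transition, while CDK6 and the cyclin gene CCNE1 were called lower at -0.96 ± 0.20 and -0.92 ± 0.28. Of 43 G2/M genes 1 was called, the mitotic kinase gene PLK1 at 0.71 ± 0.20. HMGA2, an architectural chromatin protein gene, had a difference of -1.03 ± 0.40 (adjusted p = 0.116).

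Targets of p53 were called higher in 2 of 32 cases (6.25%, against 2.81% of all genes) and lower in 4 (12.5%, against 2.63%), with a median of 0.00. The CDK inhibitor gene CDKN1A had a fitted level of 1407 in shCTRL and 1214 in shE4F1 untreated cells, and of 4270 and 1951 under gemcitabine, a difference of -0.92 ± 0.22 (adjusted p = 0.00144). Its levels differed by less than the test could call without drug and were called lower in shE4F1 cells with it. PLK2, a kinase of the stress response, and BTG2, an antiproliferative gene, were at -1.12 ± 0.21 and -1.15 ± 0.24. BTG2 stayed higher in both conditions, at 2.30 ± 0.20 and 1.15 ± 0.13 in the authors' deposited tables. The genes called higher were SESN2 and PMAIP1, which encodes the proapoptotic protein NOXA, at 1.26 ± 0.27; both are also known targets of ATF4. Of 33 apoptosis regulators 2 were called higher, PMAIP1 and the survival gene BCL2L1 (0.56 ± 0.18), and 1 was called lower. In the list of gemcitabine and nucleotide metabolism 2 of 26 were called higher, the mitochondrial thymidine kinase gene TK2 at 0.70 ± 0.18 and the nucleotidase gene NT5C at 0.80 ± 0.25. The ribonucleotide reductase gene RRM2, whose enzyme gemcitabine inhibits, had a difference of -0.16 ± 0.22.

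**Figure D5:**
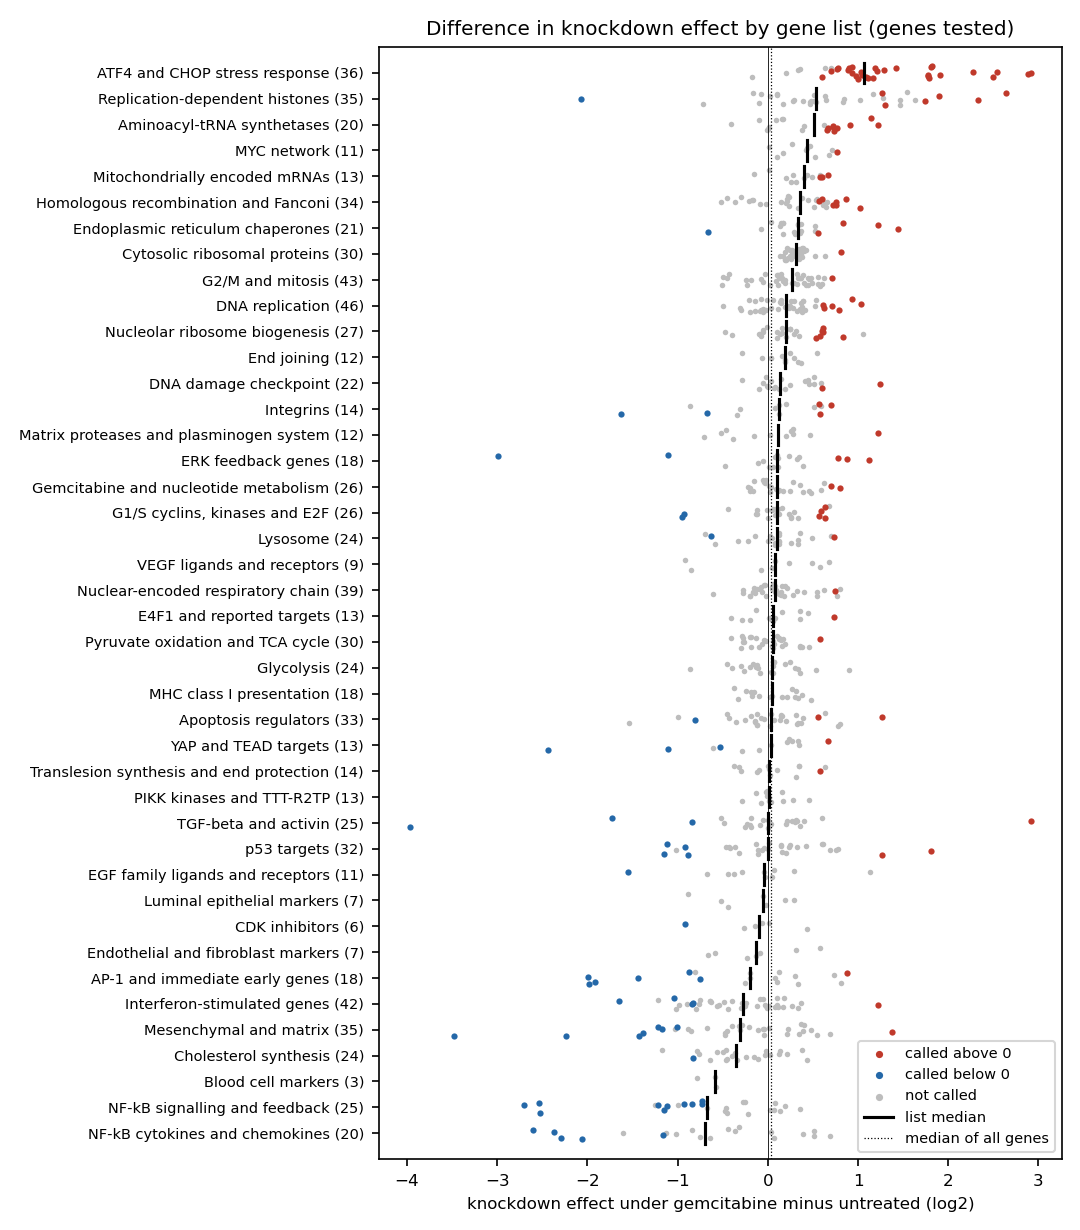
Each row is 1 of the 42 gene lists with a tested member, its number of tested genes in parentheses, and each point is the difference in knockdown effect (log2) of 1 gene, gemcitabine minus untreated. Black bars are list medians, from 1.07 for the ATF4 and CHOP list to -0.70 for NF-kB cytokines, the dotted line is the median of all genes at 0.04, and red and blue points are genes called above and below 0.

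Matrix and mesenchymal genes were called lower in 7 of 35 cases (20.0%, against 2.63% of all genes) and higher in 1 (2.86%, against 2.81%). Besides COL3A1, POSTN, which encodes periostin, was among those called lower, with a difference of -1.39 ± 0.40. COL8A1, a short-chain collagen gene, went the other way, at -0.36 ± 0.16 untreated and 1.01 ± 0.12 under gemcitabine in the authors' deposited tables (difference 1.37 ± 0.21). The most abundant matrix genes, FN1 and THBS1, were not called, at -0.32 ± 0.33 and 0.37 ± 0.20. Of 14 integrin genes 3 were called higher and 2 lower, ITGA3 at 0.70 ± 0.18 and ITGB8, which activates latent TGF-beta, at -1.63 ± 0.25 having the largest differences of each sign.

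TGF-beta family genes were called higher in 1 of 25 cases (4%), INHBE above, and lower in 3 (12%), against 2.81% and 2.63% of all genes. INHBA, another activin subunit, had a difference of -3.97 ± 0.50 and is named after its value was seen, since its mean was 16.5 untreated and 235 under gemcitabine; from the other 3 tables it was -3.60. The limit on genes low in 1 table given for the cytokines holds for INHBA too. The INHBE and INHBA subunits had the highest and the lowest difference of this list. The signal transducer gene SMAD3 was called lower at -0.84 ± 0.20, and the receptor gene TGFBR2 was not called at -0.19 ± 0.16. Of 13 targets of YAP and TEAD 3 were called lower and 1 higher, with ANKRD1, a muscle ankyrin repeat gene, at -2.44 ± 0.24 and the tissue factor gene F3 at -1.11 ± 0.25. YAP1 and TEAD1 themselves had differences of 0.21 ± 0.19 and 0.04 ± 0.20.

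Of 18 genes of ERK feedback 3 were called higher and 2 lower. The ETS factor genes ETV5 and ETV4 had differences of 1.12 ± 0.21 and 0.78 ± 0.22, ERRFI1, an inhibitor of the EGF receptor, of 0.88 ± 0.21, and the phosphatase gene DUSP10 of -1.10 ± 0.20. The tyrosine phosphatase gene PTPRR, named after its value was seen, was at -2.99 ± 0.45 with a mean of 20.9 untreated and 464 under gemcitabine, so the same limit holds for it. HBEGF was the 1 of 11 EGF family genes called. This ligand's fitted level was 361 in shCTRL and 134 in shE4F1 untreated cells and 2658 and 336 under gemcitabine, a difference of -1.55 ± 0.25 (adjusted p = 1.73e-07). EGFR itself had a difference of -0.03 ± 0.20.

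Interferon-stimulated genes were called lower in 4 of 42 cases (9.52%, against 2.63% of all genes) and higher in 1 (2.38%, against 2.81%), with a median of -0.28. GBP1, a guanylate-binding GTPase, was higher with the knockdown in both conditions, at 2.56 ± 0.21 untreated and 0.91 ± 0.14 under gemcitabine in the authors' deposited tables (difference -1.65 ± 0.25). The RNA sensor gene DDX58 had a difference of -1.04 ± 0.22 and IFI44 of -0.84 ± 0.23, and XAF1, a proapoptotic gene, was called higher at 1.23 ± 0.29. None of 18 MHC class I presentation genes was called.

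Mitochondrially encoded mRNAs were called higher in 3 of 13 cases and lower in 0, with a median of 0.40, and the 3 were MT-ND3, MT-ND4 and MT-ATP8 at 0.57 ± 0.18, 0.60 ± 0.17 and 0.66 ± 0.21. The nuclear-encoded respiratory chain had 1 of 39 called, COX5A at 0.75 ± 0.19, and pyruvate oxidation with the TCA cycle 1 of 30, PDK1, an inhibitory kinase of pyruvate dehydrogenase, at 0.58 ± 0.18. Nucleolar ribosome biogenesis had 6 of 27 called higher and 0 lower, among them the pseudouridine synthase gene DKC1 at 0.84 ± 0.20 and the RNA polymerase I factor gene UBTF at 0.61 ± 0.16. PPAN had the highest difference of this list, 1.05 ± 0.47, and was not called (adjusted p = 0.206). Of 30 ribosomal protein genes 1 was called, RPL13 at 0.81 ± 0.22, and all 30 differences were above 0, between 0.13 and 0.81. Their median was 0.31, against 0.08 for genes with a mean of at least 50 and 0.10 for those at or above 1000. Each comparison was normalized separately, and whether this shift is particular to ribosomal protein genes was not tested. Of 11 genes of the MYC network the antagonist gene MXD1 was called at 0.77 ± 0.24, and MYC was at 0.53 ± 0.18 (adjusted p = 0.0618). None of 24 glycolysis genes was called, and of 24 cholesterol synthesis genes 1 was called lower, IDI1 at -0.82 ± 0.27. Among 24 lysosome genes CTSL was called higher at 0.74 ± 0.20 and the proton pump subunit gene ATP6V1A lower at -0.63 ± 0.19.

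Among markers of other cells, none of 7 luminal epithelial, 3 blood cell and 7 endothelial or fibroblast genes was called. PTPRC was lower with the knockdown in both conditions, at -2.22 ± 0.40 and -3.00 ± 0.27 in the authors' deposited tables, with a difference of -0.79 ± 0.49. The endothelial receptor gene KDR was higher in both, at 2.34 ± 0.20 and 2.92 ± 0.14 in the authors' deposited tables, with a difference of 0.58 ± 0.24 (adjusted p = 0.164), the highest of the endothelial and fibroblast list, whose median was -0.13. The contractile gene ACTA2 had the lowest difference of that list, -0.66 ± 0.24 (adjusted p = 0.0793).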

How the data were processed

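Polyadenylated RNA was sequenced in 12 libraries, single-end, to a read length of 50 bases, per the labels. The submitters' processing notes name the build GRCh38.p7, TopHat2 2.1.1 with Bowtie2 2.2.9, HTSeq 0.9.0, and DESeq2 1.14.1 in R 3.4.0, besides FastQC and bcl2fastq. Not given in the sources used here are the design formula, filters, strand setting and annotation release. Each of the 4 tables deposited by the authors has, per the file headers, the mean normalized count of a gene (a signal averaged over the libraries involved), its log2 fold change and SE, the Wald score, and the p-value before and after adjustment. The deposited log2 fold changes of low genes are moderated towards 0 as far as the values show, possibly to a different degree in each table. A count table deposited by the authors has 12 columns whose names match no label. None was used, so no value, depth or spread per library is given.

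For each gene with a p-value in both knockdown tables, the log2 difference was divided by the root of the summed variances. The quotient was compared with a standard normal distribution, two-sided, and p-values of 20923 genes were adjusted by Benjamini-Hochberg (Python 3.11.15, numpy 2.4.6, pandas 2.3.3, scipy 1.17.1). The procedure was also run on simulated data whose noise was drawn from the deposited SEs. That run could not show whether those SEs are too small for the real data. A gene was called at an adjusted p under 0.05. Fitted group levels were derived from a table's mean and fold change. Counts of list members are descriptions, to be read against the shares called among all genes and, for well-expressed lists, among genes with a mean of at least 50.

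The members and the 43 gene lists (985 symbols, 896 tested) were chosen with earlier results of these data known, and the subgroups of the ATF4 list after values were seen. Named genes were the 12 highest and 12 lowest differences among called genes with a mean of at least 50 in both tables, 6 genes called with opposite signs, up to 4 called and 2 uncalled members per list, 5 genes each within 0.3 of 0 in one table, and 12 genes of interest; list members outside this rule are named for completeness. Gene positions and biotypes are from GENCODE 29 (GRCh38), which held 20802 of the tested gene IDs. RefSeq promoter windows (GRCh38.p14) covered 11458 of 14198 tested protein-coding genes, and a gene with several starts has several windows. Alternatives were the other 3 tables, minimum means of 50 and 1000, an adjusted p in both tables, centring, an equal scale, scaling the test statistic by its spread over genes, Benjamini-Yekutieli adjustment and a threshold of 0.01. Values of some single genes counted in the lists are not reported here.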

Additional observations from a re-analysis of the deposited data

Results flagged for a closer look

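The effect of the E4F1 knockdown differed between untreated and gemcitabine-treated cells, by the test of the difference itself, in 587 genes where it was higher under gemcitabine and in 550 where it was lower. The genes below are those in which both knockdown effects were called with opposite signs, with a mean of at least 50, and which had the largest smaller effect. DDIT4 turned from lower to higher, with a difference of 2.54 ± 0.19 (log2, SE). COL3A1 turned from higher to lower at -3.48 ± 0.36, TNFAIP3 at -2.70 ± 0.23 and ADM at -2.62 ± 0.30. SH3TC2 and the noncoding gene ENSG00000259828 also turned from higher to lower, at -1.91 ± 0.37 and -1.73 ± 0.39. Taken from the other 3 tables, the difference of ENSG00000259828 was -1.69 and was not called (adjusted p = 0.138). No value per library was used, so single libraries that stand apart could not be looked for.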

How the results depend on the processing

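Against 1137 called genes, 587 higher, 550 lower and 462 with a difference of at least 1 (log2), the same difference taken from the other 3 tables gave 132, 49, 83 and 123, by construction with larger errors, since it counts shared libraries more than once. Its values lay within 0.2 of the reported ones for 98.8% of 20473 genes. Scaling the test statistic by its spread over genes (1.28) gave 272, 119, 153 and 210, and Benjamini-Yekutieli adjustment 476, 229, 247 and 292. A threshold of 0.01 gave 601, 294 and 307. Among genes with a mean of at least 50 the calls of at least 1 numbered 301. Among those at or above 1000 there were 554 calls, 154 lower and 65 of at least 1, so that 72.2% of calls were higher against 51.6% of all. Centring, an equal scale and an adjusted p in both tables gave 1116, 1144 and 1170 calls. None of the 132 calls made from the other 3 tables changed sign; most of the other alternatives leave the differences as they are. The 195 named genes include members that were not called in the first place and so could not lose a call. Of these 195, 69 lost their call from the other tables, 56 with the scaled statistic, 41 with Benjamini-Yekutieli and 31 at 0.01, and 0 with centring or an equal scale. The cause was not tested. Errors were largest for low genes, with a median SE of 0.685 under a mean of 50, and depth per library is unknown. No paired analysis was possible because the columns of the count table carry no sample names that match the labels. For the same reason leaving out each replicate, edgeR, DESeq2 and their normalizations were not run.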

Other observations

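The few long noncoding genes that were called were mostly lower. Of 1797 lincRNA genes tested, 61 were called lower under gemcitabine (3.39%, against 2.63% of all genes) and 7 higher (0.390%, against 2.81%). Of 1821 antisense genes 32 were lower (1.76%, below the 2.63% of all genes) and 9 higher (0.494%). Protein-coding genes were divided otherwise, with 434 of 14198 lower (3.06%) and 548 higher (3.86%). The direction of calls also varied with level: 72.2% of calls were higher among genes at or above a mean of 1000, against 51.6% of all calls. Levels of these gene classes were not compared.

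Some promoter words were unevenly divided between protein-coding genes called higher and lower. The E2F word TTTNNCGC was in 17.1% of windows of genes called higher, 9.92% of those called lower and 12.6% of all, and the CHR word TTTGAA of cell cycle genes in 12.1%, 21.0% and 14.6%. The word TGACGT, the core of the E4F1 and CRE motifs, was in 11.9%, 13.9% and 13.7%. These shares are descriptions with no test, and a word in a window is not a bound site.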
